A study of Mus musculus with 6 samples.

Results

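Chemokines and their receptors were measured in mouse ureters 4 days after the ureter of 1 side had been obstructed so that urine backed up (unilateral ureteral obstruction). The genes were chosen by name: every non-control probe of the array whose gene name begins with Ccl, Cxcl, Ccr or Cxcr and a digit, and those named Cx3cl1, Cx3cr1, Xcl1, Xcr1 and Ackr1 to Ackr4. The rule used no measured value. It took 59 genes, 36 ligands and 23 receptors, of the 36610 gene names on the array, and 85 of its 56605 probes. RNA came from whole ureters of C57BL/6N mice aged 2 months. The mice labelled Col17a1-KO gave 3 arrays, replicates 1 and 2 from males and replicate 3 from a female, and the Col17a1-WT mice gave 3 arrays, all from males. Both genotypes had been obstructed, and unobstructed ureters were not analysed here, so the comparison is of genotype within obstruction and not of obstruction itself. The labels do not describe the Col17a1 allele or the cells in which it is altered.

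Chemokines are small secreted proteins that steer leukocytes, and they are classed as C, CC, CXC or CX3C by the spacing of their leading cysteines. They act on leukocytes through G protein-coupled receptors, while atypical receptors (Ackr genes) bind chemokines without G protein signalling and can scavenge them. In obstructed urinary tissue the family is best known for bringing in monocytes through Ccl2 and its receptor Ccr2, and neutrophils through CXC ligands and Cxcr2. Col17a1 encodes collagen XVII, a hemidesmosome protein of basal epithelial cells.

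Values are log2 processed signals relative to each array's 75th percentile, so 0 marks that percentile, and levels are compared between arrays for 1 probe and never between probes. Differences are KO-labelled minus WT. The arrays had 75th-percentile signals of 143.7 to 164.9 and between-array correlations, taken across genes, of 0.977 to 0.993. Col17a1 had a higher and not a lower mean signal in KO-labelled ureters. The brighter of its probes had 0.50, 0.53 and 0.40 in KO-labelled arrays 1, 2 and 3, against -2.33, -0.80 and -0.39 in WT arrays 1, 2 and 3. Its difference was 1.65 ± 0.48 (standard error; limma, adjusted p = 0.457). The altered part of the gene is not stated in the labels, so whether a probe lies in it was not analysed here, and the groups are called by their labels. The labels number the arrays but do not say in words that each came from a separate animal, and p-values measure the spread between these arrays.

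Of the 59 genes, 46 were measured, meaning that all arrays of a genotype, or of both, had the probe well above background, and 45 of these were so on all 6 arrays. The remaining measured gene, Ccl1, was so on 2 KO-labelled and 3 WT arrays. Another 13 were not measured. Ccl20, Ccl22, Ccl26, Ccr1, Ccr1l1, Cxcl15, Cxcl17 and Xcr1 were well above background on no array. Ccl28 reached it on 0 KO-labelled and 2 WT arrays, Ccr10 on 0 and 1, Ccr4 and Xcl1 on 1 and 1 each, and Cxcr1 on 2 and 2. No chemokine spot was flagged or saturated.

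No chemokine or receptor gene passed the adjusted threshold of 0.05 (limma, Benjamini-Hochberg over 22260 genes). The same was true of the whole array, where 0 of 22260 genes passed, or 0%, and the smallest adjusted p was 0.229. The smallest adjusted p in the family was 0.440. At an unadjusted p under 0.05, the family held 5 of 46 genes, or 10.9%, beside 9.06% of all genes, a share near the background. The members at that level were 4 with a lower mean in KO-labelled ureters, Ccr7, Cx3cr1, Ccl8 and Cxcl16, where lower genes made up 4.71% of the array, and 1 with a higher mean, Cxcr6, where higher genes made up 4.35%. The groups did not overlap for 5 of 46 genes, again 10.9%, beside 15.4% of all genes. Of these, 4 were lower (Ccr7, Cx3cr1, Ccl25 and Ccl8), beside 8.13% of all genes, and Cxcr6 was higher, beside 7.28%. By sign, in KO-labelled ureters 34 of 46 members had a lower mean and 12 a higher mean, so 73.9% were lower, beside 50.2% of all genes. The median difference was -0.31 over the members and -0.00 over all genes, with a range of -1.19 to 0.59 among members. Ligands and receptors had like medians, with 21 of 29 ligands lower and a median of -0.31, and 13 of 17 receptors lower and a median of -0.30. These counts and medians are a description of the list, since its members share arrays and cell sources and are not replicates.

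**Figure D1:**
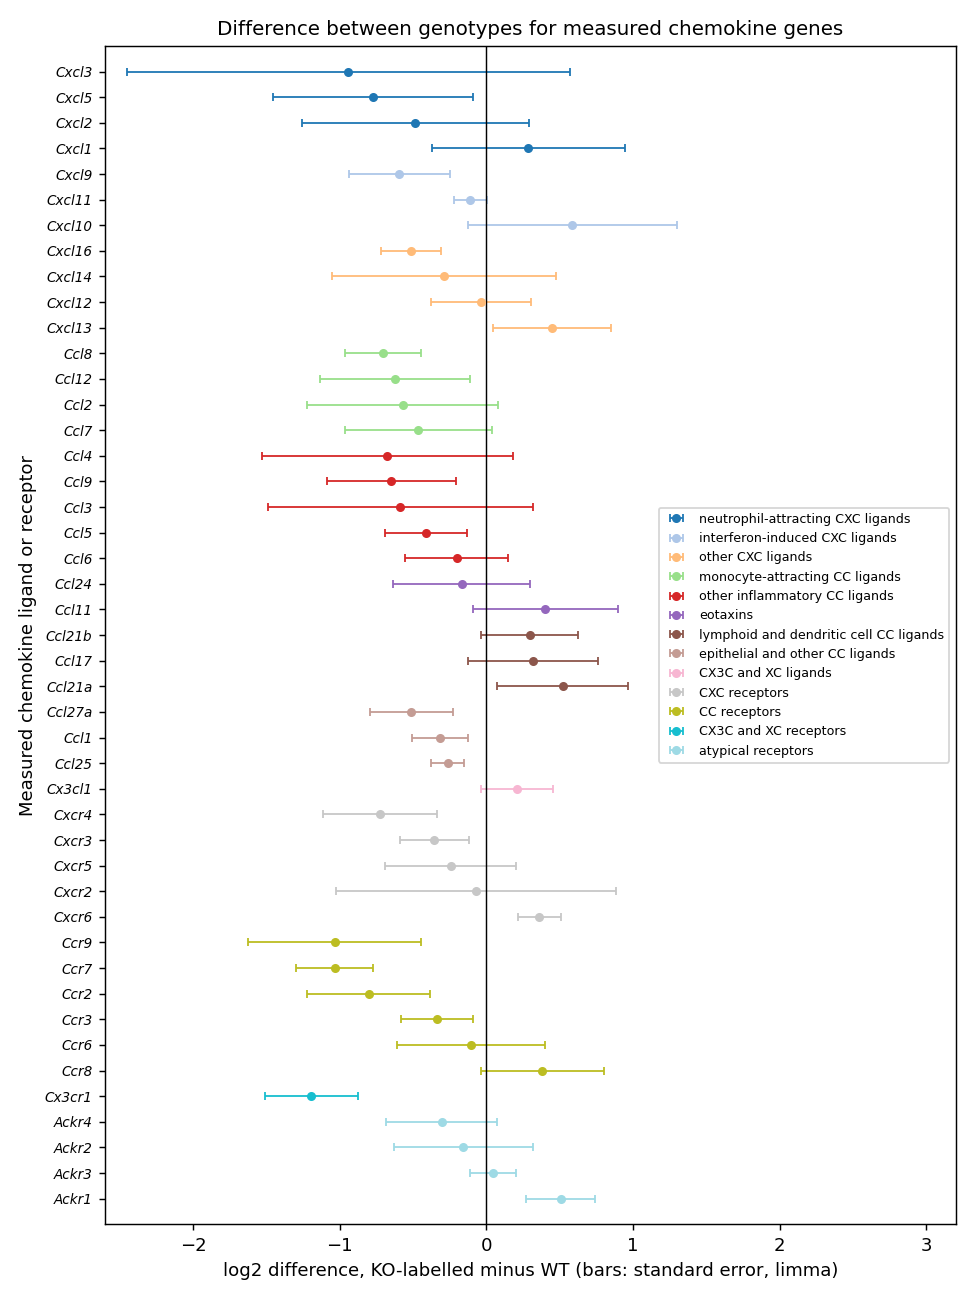
Difference between KO-labelled and WT ureters for 45 measured chemokine ligands and receptors (x axis, log2, KO-labelled minus WT; bars, limma standard error), grouped by role. Most points lie left of 0, 33 of 45, and Cx3cr1 lies farthest left, at -1.19.

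The receptors with the clearest separation were Cx3cr1 and Ccr7. Cx3cr1, the receptor for fractalkine, is carried by monocytes and many tissue macrophages. Its brighter probe (chr9:119957811-119957870, mm9) had 0.93, 0.74 and 1.65 in KO-labelled arrays 1, 2 and 3, against 2.09, 2.81 and 2.00 in WT arrays 1, 2 and 3. Every KO-labelled array was below every WT array, and KO replicate 3 was the nearest to the WT range. The means were 1.11 ± 0.48 in KO-labelled and 2.30 ± 0.45 in WT ureters (SD, n = 3 each). The difference was -1.19 ± 0.32, or 2.29-fold lower in KO-labelled ureters, with an unadjusted limma p of 0.00844 and an adjusted p of 0.453. A dimmer probe of the gene gave -1.18 ± 0.34, so both probes separated the genotypes by about the same amount. Its ligand Cx3cl1, made by endothelium and epithelium, had 3.01, 2.87 and 2.40 in the KO-labelled arrays, against 2.21, 2.49 and 2.95 in the WT arrays, and the ranges overlapped (difference 0.21 ± 0.24, limma adjusted p = 0.824).

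Ccr7 guides mature dendritic cells and naive T cells to lymphoid tissue. Its brighter probe (chr11:99005551-99005610, mm9) had -0.62, -0.78 and 0.17 in KO-labelled arrays 1, 2 and 3, against 0.64, 0.46 and 0.77 in the WT arrays. The groups did not overlap, and the 3 WT arrays lay within a narrow band while KO replicate 3 stood above the other KO-labelled arrays. The means were -0.41 ± 0.51 in KO-labelled and 0.63 ± 0.16 in WT ureters (SD, n = 3 each). The difference was -1.03 ± 0.26, or 2.05-fold lower in KO-labelled ureters (limma, unadjusted p = 0.00687, adjusted p = 0.440). The other probe read -3.20, -2.91 and -2.41 in the KO-labelled arrays, against -1.74, -2.21 and -1.67 in the WT arrays, again with no overlap and with a difference of -0.97 ± 0.24. The ligands of Ccr7 that were measured, Ccl21a and Ccl21b, attract the same cells from lymphatic vessels and had higher means in KO-labelled ureters. Ccl21a had 1.75, 0.61 and 2.15 in the KO-labelled arrays, against 1.45, 1.06 and 0.44 in the WT arrays. Ccl21b had 3.60, 2.88 and 4.13 in the KO-labelled arrays, against 3.46, 3.36 and 2.90 in the WT arrays. Both spanned overlapping ranges, with differences of 0.52 ± 0.45 and 0.29 ± 0.33. The genes are near-identical copies, so their probes may share transcripts and the values are uncertain for each copy. Ccl17, made by dendritic cells, was also higher by 0.32 ± 0.44, which completes the class of lymphoid and dendritic cell ligands: 0 of 3 measured members lower, and none past the threshold.

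Markers of dendritic cells and macrophages had lower values in the KO-labelled ureters as well. All 8 of the 8 listed dendritic cell markers were measured and lower, with a median difference of -1.32. The differences ran from -1.81 for Clec9a to -0.26 for Zbtb46, whose groups overlapped. The median lay among the MHC class II pathway genes H2-Aa, H2-Ab1 and Cd74, at -1.31, -1.33 and -1.34. The mean level of the 8 markers, after centring each gene on its 6-array mean, was -1.17 to 0.05 in KO-labelled arrays and 0.51 to 0.72 in WT arrays. All 9 of the 9 macrophage markers were lower, with a median of -0.56 and mean levels of -0.58 to 0.06 in KO-labelled arrays and 0.12 to 0.46 in WT arrays. The mean levels of both lists did not overlap between genotypes, as for Cx3cr1 and Ccr7, but the macrophage gap was narrow, 0.06 against 0.12. On single macrophage markers, the groups overlapped for Cd68, Fcgr1 and Mrc1. The lists were chosen with earlier results of these data known, so this is a description and lends no support. Every marker of both lists was measured. Their part in the chemokine values was not tested. In whole ureter RNA, fewer cells of a type and less RNA per cell cannot be told apart.

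Among the other CC receptors the direction was mostly the same but the arrays overlapped. In the class as a whole 6 of 7 measured members had lower means. Ccr2, the receptor that brings monocytes out of the blood to sites of Ccl2 release, had 0.76, 0.01 and 1.57 in the KO-labelled arrays (chr9:124022948-124023007, mm9), against 1.41, 2.06 and 1.27 in the WT arrays. KO replicates 1 and 2 were below all WT arrays, and KO replicate 3 was above WT replicates 1 and 3. The means were 0.78 ± 0.78 in KO-labelled and 1.58 ± 0.42 in WT ureters (SD, n = 3 each). The difference was -0.80 ± 0.42 (limma, unadjusted p = 0.102, adjusted p = 0.613). Ccr9, a gut-homing receptor, differed by -1.03 ± 0.59, and Ccr3, the eotaxin receptor, by -0.33 ± 0.25. Ccr6 differed by -0.11 ± 0.50, and Ccr8 alone in the class had a higher mean, by 0.38 ± 0.42.

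Cxcr6, found on effector T cells, NK cells and innate lymphoid cells, was the only member whose KO-labelled arrays were all above its WT arrays on the probe that stood for the gene. It had -1.50, -1.51 and -1.10 in the KO-labelled arrays (chr9:123720719-123720778, mm9), against -1.80, -1.62 and -1.79 in the WT arrays. The difference was small, 0.36 ± 0.15 or 1.29-fold (limma, unadjusted p = 0.047, adjusted p = 0.542), and its other probe gave 0.32. Its ligand Cxcl16, a transmembrane chemokine of macrophages and dendritic cells, had a lower mean. Cxcl16 had 0.41, 0.94 and 0.83 in the KO-labelled arrays (chr11:70267780-70267839, mm9), against 0.91, 1.38 and 1.42 in the WT arrays, and KO replicate 2 was above WT replicate 1. Its difference was -0.51 ± 0.20 (limma, unadjusted p = 0.0435, adjusted p = 0.536), but its other probe gave -0.26. Of 9 listed T and NK cell markers 7 were measured, with Cd8a and Ncr1 not among them. Of these 6 were lower, with a median of -0.14 and mean levels of -0.67 to 0.47 in KO-labelled arrays and -0.15 to 0.36 in WT arrays. Their part in the Cxcr6 values was not tested.

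The remaining CXC receptors had means lower in KO-labelled ureters, 4 of 5 measured in the class, with a median of -0.24. Cxcr4, the Cxcl12 receptor of most leukocytes, had -1.81, -1.67 and -0.42 in the KO-labelled arrays, against -0.77, -0.23 and -0.72 in the WT arrays. KO replicate 3 again lay inside the WT range and the other KO-labelled arrays below it (difference -0.73 ± 0.39, limma adjusted p = 0.623). Cxcr3 of T cells differed by -0.36 ± 0.23 and Cxcr5 of B cells by -0.24 ± 0.44. Cxcr2, the main chemokine receptor of neutrophils, had -0.96, -0.39 and 1.43 in the KO-labelled arrays, against -1.68, 1.55 and 0.43 in the WT arrays. It varied more among arrays of 1 genotype than between genotypes, and its difference was -0.07 ± 0.95.

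**Figure D2:**
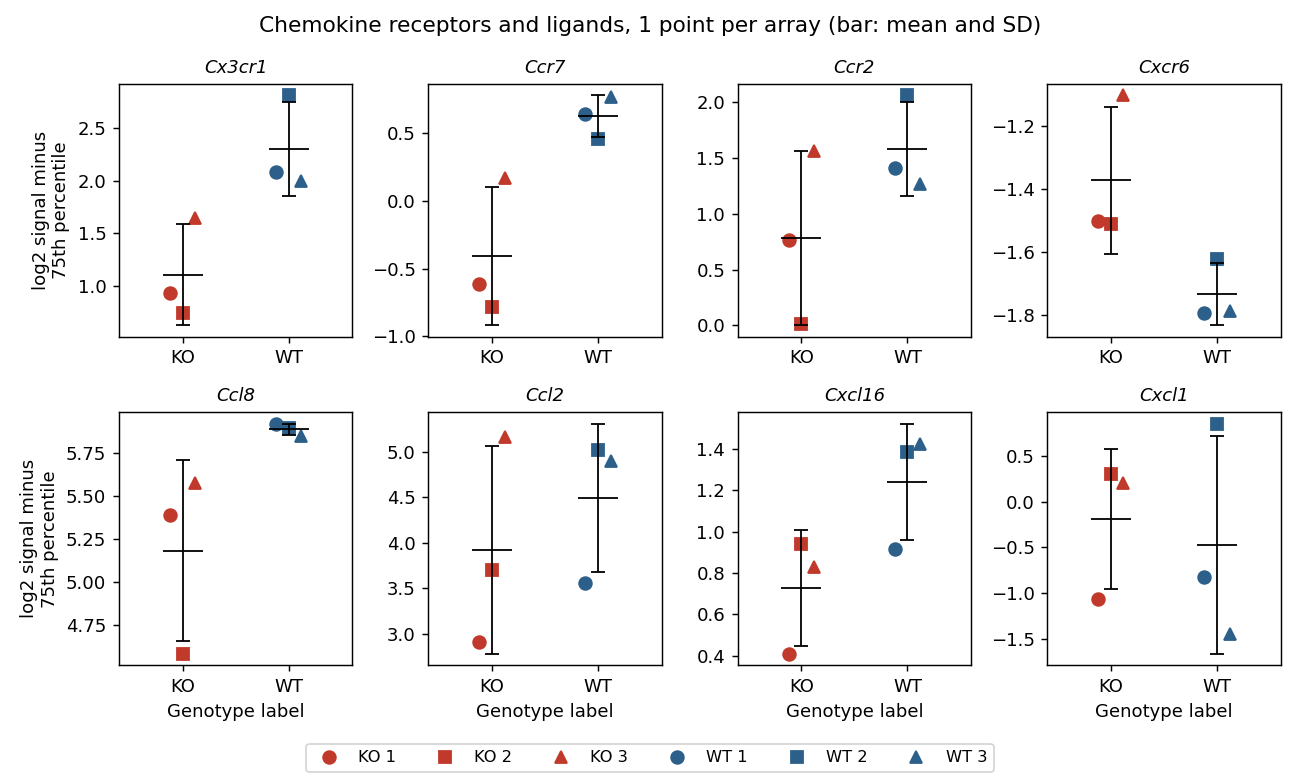
Log2 value on each array (y axis, relative to the array's 75th percentile) of selected members in KO-labelled (left in each panel) and WT ureters, 3 arrays each, with bars for the mean and SD. The groups separate for Ccr7, Cx3cr1, Ccl8 and Cxcr6, while Ccr2, Ccl2 and Cxcl1 overlap.

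The ligands classed here as monocyte-attracting, Ccl2, Ccl7, Ccl8 and Ccl12, all had lower means in KO-labelled ureters, 4 of 4 with a median of -0.60. Whether Ccl8 draws monocytes in these ureters was not tested. Ccl8 was the ligand with the smallest unadjusted p. It had 5.39, 4.58 and 5.58 in the KO-labelled arrays (chr11:81930108-81930167, mm9), against 5.92, 5.90 and 5.85 in the WT arrays. The WT arrays were almost level, and KO replicate 2 was farthest below them. The means were 5.18 ± 0.53 in KO-labelled and 5.89 ± 0.03 in WT ureters (SD, n = 3 each), a difference of -0.71 ± 0.26 or 1.63-fold lower (limma, unadjusted p = 0.0332, adjusted p = 0.510). Without KO replicate 2, the difference was -0.41.

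Ccl2, the main Ccr2 ligand and the monocyte attractant named above, overlapped widely. It had 2.91, 3.70 and 5.16 in the KO-labelled arrays (chr11:81850650-81850709, mm9), against 3.55, 5.03 and 4.91 in the WT arrays. The array with the highest Ccl2 value was KO replicate 3, and the spread within each genotype exceeded the difference of -0.57 ± 0.65 (limma, unadjusted p = 0.414, adjusted p = 0.822). The group means were 3.92 ± 1.14 in KO-labelled and 4.49 ± 0.82 in WT ureters (SD, n = 3 each). With 1 array left out, the Ccl2 difference ran from -1.19 (without KO replicate 3) to -0.06 (without KO replicate 1). Ccl12, a mouse Ccr2 ligand, had 1.85, 1.74 and 3.28 in the KO-labelled arrays, against 2.13, 3.28 and 3.31 in the WT arrays. Its difference was -0.62 ± 0.51 (limma adjusted p = 0.751), and Ccl7, which acts on Ccr2 and Ccr3, differed by -0.46 ± 0.50. Ccl2, Ccl7 and Ccl12 shared an order of arrays in which KO replicate 3 with WT replicates 2 and 3 stood above the other 3 arrays.

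The other inflammatory CC ligands, Ccl3, Ccl4, Ccl5, Ccl6 and Ccl9, had lower means in 5 of 5 cases, with a median of -0.59 and none past the threshold. Ccl9, a mouse myeloid chemokine, had 5.32, 5.6 and 6.38 in the KO-labelled arrays, against 5.55, 6.85 and 6.85 in the WT arrays, with WT replicate 1 among the KO-labelled values (difference -0.65 ± 0.44, limma adjusted p = 0.696). Ccl5, a product of T cells and macrophages, had 0.59, 0.53 and 1.14 in the KO-labelled arrays, against 1.69, 1.03 and 0.77 in the WT arrays (difference -0.41 ± 0.28, limma adjusted p = 0.7). Both pairs of groups overlapped, and without WT replicate 1 the Ccl5 difference was -0.148. Ccl3 and Ccl4, the macrophage inflammatory proteins, had their highest values in KO replicate 3, at 2.87 and 2.83. Their differences were -0.59 ± 0.90 and -0.67 ± 0.86. Ccl6, the mouse neighbour of Ccl9, differed by -0.20 ± 0.35.

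Ligands that draw neutrophils through Cxcr2 varied widely from array to array, and 3 of 4 had lower means, with a median of -0.63. Cxcl1 had -1.07, 0.30 and 0.20 in the KO-labelled arrays (chr5:91322080-91322139, mm9), against -0.83, 0.85 and -1.45 in the WT arrays. WT arrays held both its highest and its lowest value, and the groups overlapped (means -0.19 ± 0.77 in KO-labelled and -0.47 ± 1.19 in WT ureters (SD, n = 3 each)). The difference was 0.29 ± 0.66 (limma, unadjusted p = 0.679, adjusted p = 0.923). Cxcl5, an epithelial Cxcr2 ligand, had 1.61, 2.69 and 3.63 in the KO-labelled arrays, against 2.35, 4.49 and 3.41 in the WT arrays (difference -0.77 ± 0.68, limma adjusted p = 0.768). Without WT replicate 2 the Cxcl5 difference was -0.236, and without WT replicate 1 it was -1.31. Cxcl2, made by macrophages and neutrophils, had -2.16, -2.33 and 0.02 in the KO-labelled arrays, against -1.86, 0.13 and -1.30 in the WT arrays (difference -0.48 ± 0.77, limma adjusted p = 0.878). For both, WT replicate 2 was the highest array and WT replicate 1 lay among the KO-labelled values. Cxcl3 spanned 4.77 on the log2 scale across the 6 arrays, the widest range in the family, with a difference of -0.94 ± 1.51. All 8 listed neutrophil markers were measured, of which 3 were lower and 5 higher, with a median of 0.22. At an unadjusted limma p under 0.05, 3 were higher, beside 4.35% of all genes, and 0 lower. Ngp and Camp differed by 3.17 ± 0.52 and 1.17 ± 0.18 without overlap (limma adjusted p = 0.398 each). The WT values of Ngp, -7.11 to -5.77, were near background. Mmp8 differed by -0.71 ± 0.99. Mean levels of the 8 markers were -0.20 to 0.60 in KO-labelled arrays and -1.0 to 0.42 in WT arrays. Their part in the Cxcr2 ligand values was not tested.

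Because Cxcl1, Cxcl2 and Cxcl3 lie in 1 cluster and spread widely across arrays, their upstream sequences are shown with that of Cxcl10, which carries both motifs searched for. Each is the 250 bases before the gene's start in RefSeq, build GRCm38.p6, read 5′ to 3′ on the gene's strand. Capitals mark the kappaB-like motif, GGG then any 3 bases then TTCC, a pattern bound by NF-kappaB, on either strand, and in Cxcl10 also GAAA, any 2 bases, GAAA, the core of the interferon-stimulated response element. A stretch such as GGGAATTTCCC matches once on each strand, at positions 1 base apart, and so counts as 2 overlapping matches.
Cxcl1, chr5:90890995-90891244, + strand: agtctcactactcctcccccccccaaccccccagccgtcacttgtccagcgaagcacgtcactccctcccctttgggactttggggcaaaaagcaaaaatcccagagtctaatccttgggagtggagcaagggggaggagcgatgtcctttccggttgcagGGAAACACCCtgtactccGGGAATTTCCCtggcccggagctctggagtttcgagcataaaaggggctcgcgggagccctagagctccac
Cxcl2, chr5:90903649-90903898, + strand: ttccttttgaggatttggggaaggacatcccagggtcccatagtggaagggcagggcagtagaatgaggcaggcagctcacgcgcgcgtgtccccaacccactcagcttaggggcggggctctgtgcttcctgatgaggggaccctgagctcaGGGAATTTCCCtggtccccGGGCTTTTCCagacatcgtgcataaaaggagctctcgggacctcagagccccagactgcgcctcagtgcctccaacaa
Cxcl3, chr5:90785851-90786100, + strand: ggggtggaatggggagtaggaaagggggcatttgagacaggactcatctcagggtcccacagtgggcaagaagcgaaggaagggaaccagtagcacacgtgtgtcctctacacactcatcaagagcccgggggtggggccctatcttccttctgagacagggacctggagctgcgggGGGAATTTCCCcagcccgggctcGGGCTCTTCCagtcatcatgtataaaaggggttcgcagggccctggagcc
Cxcl10, chr5:92348890-92349139, - strand: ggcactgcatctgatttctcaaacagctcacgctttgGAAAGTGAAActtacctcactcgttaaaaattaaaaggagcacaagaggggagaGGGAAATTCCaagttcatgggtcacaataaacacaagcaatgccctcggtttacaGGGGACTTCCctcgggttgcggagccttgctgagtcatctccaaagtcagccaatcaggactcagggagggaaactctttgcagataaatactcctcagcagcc
The kappaB-like motif was found 3 times each in Cxcl1, Cxcl2 and Cxcl3, where the match nearest the start began 70, 78 and 50 bases upstream. Cxcl10 had 2 matches, the nearer at 104 bases, and 1 interferon motif at 213 bases. Of the 59 members 44 had a promoter in the table, and 9 of them, 20.5%, held the kappaB-like motif, beside 5.31% of 27025 genes. The others were Ccl1, Ccl9, Ccl20, Ccr3 and Ccr6. Across the arrays Cxcl3, Cxcl2 and Cxcl1 ranged over 4.77, 2.47 and 2.31. Cxcr2, Cxcl14 and Ccl3 ranged over 3.23, 3.06 and 3.05 with no kappaB-like match. Ccl1 and Ccr3, which hold the motif, ranged over 0.72 and 0.87. Ccl1 was near background, at -5.03 to -4.31, which limits how far its signal can fall. The relation of the motif to the spread was not tested. The interferon motif was in 2 of 44 members, Cxcl10 and Cxcl14, or 4.55%, beside 3.46% of all genes. Neither motif was in the 250 bases before Cx3cr1, Ccr2, Ccl8 or Cxcr6. Ccl2, Ccr7 and Cxcl16 had no promoter entry and were not searched. A match is a run of letters and not a binding site, and no binding was measured.

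The interferon-induced ligands of Cxcr3 did not share a pattern. Cxcl9 had -0.00, -0.87 and -0.21 in the KO-labelled arrays, against 0.87, 0.00 and -0.18 in the WT arrays, with overlapping ranges (difference -0.59 ± 0.34, limma adjusted p = 0.645). Cxcl11 had 7.66, 7.60 and 7.52 in the KO-labelled arrays, against 7.71, 7.81 and 7.57 in the WT arrays, the narrowest spread of the class (difference -0.11 ± 0.11, limma adjusted p = 0.799). Its other probe was far dimmer, with 1.97, 1.89 and 1.95 in the KO-labelled arrays, against 1.85, 2.08 and 1.98 in the WT arrays. The difference on that probe was -0.03 ± 0.11. Whether each probe reads only Cxcl11 was not tested, so its level is uncertain. Cxcl10 was highest in KO replicate 3, at 2.89, and lowest in KO replicate 2, at 0.02, so a single genotype held both ends of its range (difference 0.59 ± 0.72).

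Homeostatic and epithelial ligands were mixed. Cxcl13, the B cell attractant, had 1.55, 1.58 and 0.24 in the KO-labelled arrays, against 0.50, 0.44 and 1.10 in the WT arrays, with KO replicate 3 lowest of the 6 (difference 0.45 ± 0.40, limma adjusted p = 0.773). Cxcl12, the stromal Cxcr4 ligand, differed by -0.03 ± 0.34 and Cxcl14 by -0.29 ± 0.77. Ccl11, the eotaxin that draws eosinophils through Ccr3, had 3.30, 3.15 and 3.12 in the KO-labelled arrays, against 1.6, 3.17 and 3.59 in the WT arrays. WT replicate 1 was far below the other 5 arrays for Ccl11 (difference 0.40 ± 0.50, limma adjusted p = 0.835). Ccl24, another eotaxin, had 1.90, 2.93 and 2.93 in the KO-labelled arrays, against 1.84, 3.12 and 3.31 in the WT arrays (difference -0.17 ± 0.47). Of 4 eosinophil markers 3 were measured, without Epx, and their mean levels were -0.09 to 0.68 in KO-labelled arrays and -0.55 to 0.26 in WT arrays, while those of the 5 B cell markers were -0.41 to 0.35 in KO-labelled arrays and -0.27 to 0.48 in WT arrays. Their part in the eotaxin and Cxcl13 values was not tested. All 3 measured epithelial and other CC ligands had lower means, with a median of -0.31. Ccl25, the ligand of Ccr9, had -0.96, -1.07 and -0.94 in the KO-labelled arrays, against -0.67, -0.63 and -0.87 in the WT arrays. Its groups did not overlap on this probe and its 4 probes were all lower, although the difference was only -0.26 ± 0.11 (limma, unadjusted p = 0.0548, adjusted p = 0.555). The groups overlapped on other Ccl25 probes. On 1 of them KO replicate 1, at -4.125, was above all WT arrays. On another, WT replicate 3, at -4.02, lay among the KO-labelled values. Ccl27a, a skin chemokine, had 0.19, -0.24 and -0.11 in the KO-labelled arrays, against 1.07, 0.04 and 0.27 in the WT arrays (difference -0.51 ± 0.28, limma adjusted p = 0.631). Of its 4 probes 2 were lower and 2 higher, the only disagreement in sign among the 13 members with several measured probes. On each of the higher probes every KO-labelled array was above every WT array (differences 0.31 ± 0.12 and 0.25 ± 0.14). On the other lower probe every KO-labelled array was below every WT array (difference -0.50 ± 0.25). The direction of Ccl27a thus depends on the probe. Ccl1 differed by -0.31 ± 0.19, with values near background. It passed the filter only through the WT arrays, where its mean was higher, so its direction is uncertain. The median of the epithelial and other CC ligands, and that of all ligands, is the value of Ccl1.

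Of the atypical receptors 2 of 4 were lower, with a median of -0.05. Ackr1, which carries chemokines across venular endothelium, had 1.58, 1.79 and 1.27 in the KO-labelled arrays, against 0.87, 0.76 and 1.48 in the WT arrays. WT replicate 3 lay among the KO-labelled values, and the difference was 0.51 ± 0.24 (limma, unadjusted p = 0.0719, adjusted p = 0.579). Endothelial markers were lower in 1 of 5 cases, with a median of 0.16 and mean levels of -0.09 to 0.39 in KO-labelled arrays and -0.26 to 0.06 in WT arrays. Their part in the Ackr1 values was not tested. Ackr4, a scavenger of Ccl21 and Ccl25, had -4.10, -4.21 and -4.27 in the KO-labelled arrays, against -2.98, -4.45 and -4.23 in the WT arrays, with WT replicate 1 above the rest (difference -0.30 ± 0.38, limma adjusted p = 0.838). Ackr2, a scavenger of inflammatory CC ligands, differed by -0.16 ± 0.47 and Ackr3, which binds Cxcl12, by 0.05 ± 0.16.

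**Figure D3:**
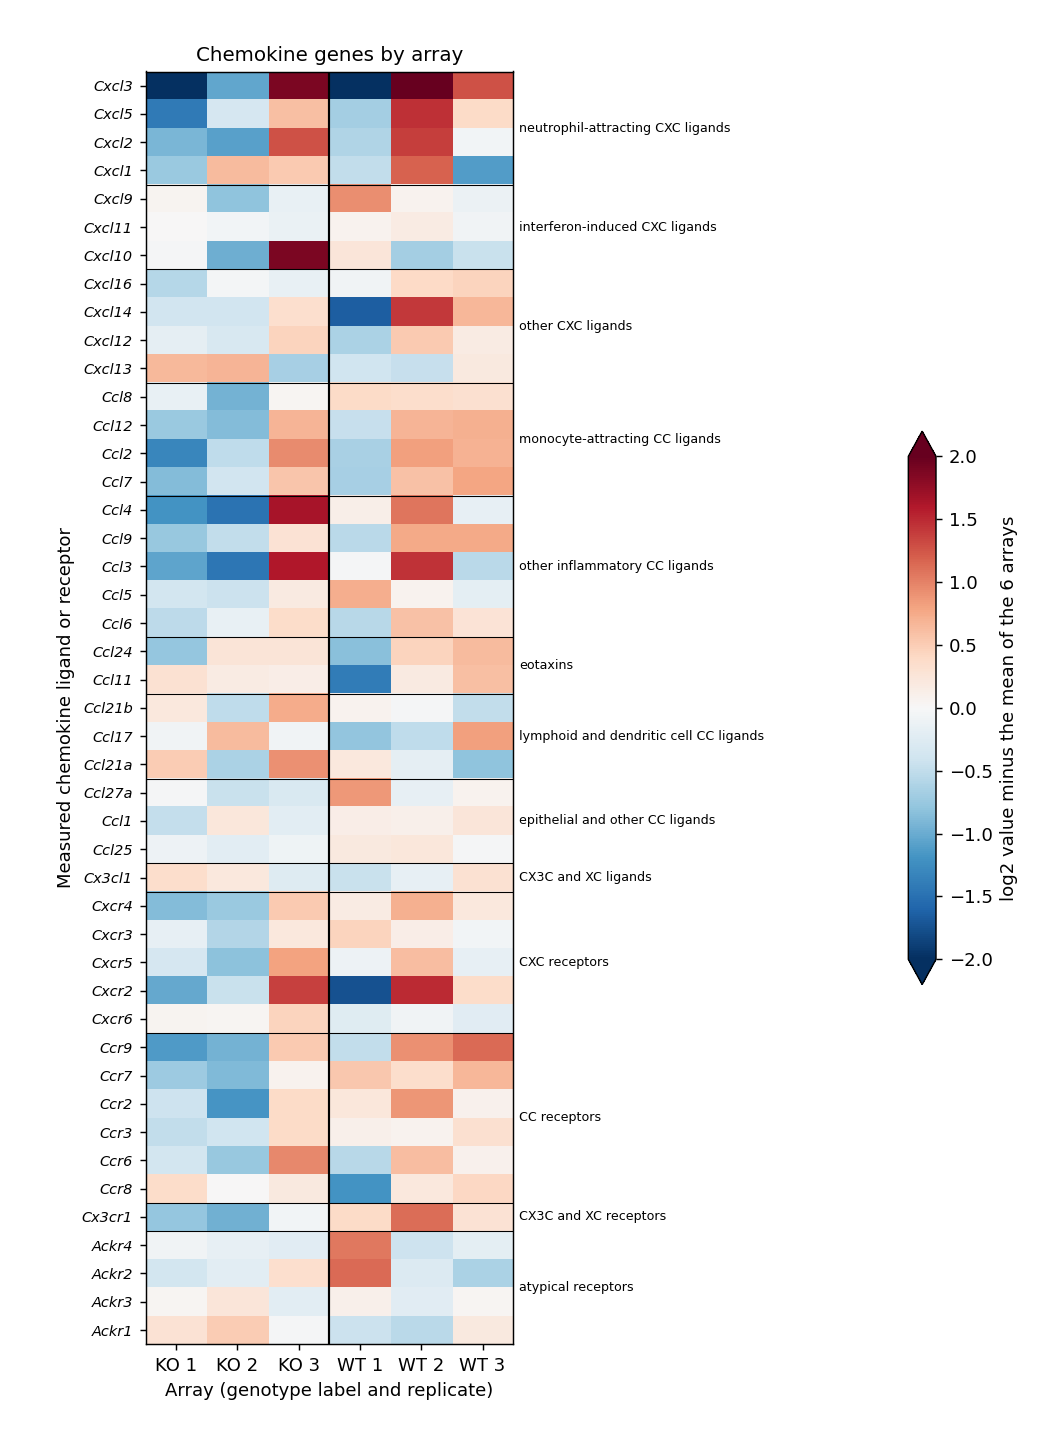
Log2 value of 45 measured members on each array minus that gene's mean over the 6 arrays (colour scale, red above and blue below the mean), with KO-labelled arrays left of WT arrays and genes ordered by role. KO replicate 3 and WT replicate 2 are red for many inflammatory ligands, for which KO replicates 1 and 2 and WT replicate 1 are mostly blue.

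Many members ranged widely over the arrays. The median range over the 6 arrays was 1.58 on the log2 scale for members and 0.57 for all genes, and 13 of 46 members, 28.3%, ranged over more than 2, beside 3.85% of all genes. Many members ranked the arrays alike, with both genotypes among the highest. For 16 of 46 members, 34.8%, the 3 highest arrays were KO replicate 3 with WT replicates 2 and 3, an order shared by 15.0% of all genes. Among those were Ccr6, Ccr9, Cxcr2, Cxcr4, Ccl2, Ccl6, Ccl7, Ccl9, Ccl12, Ccl24, Cxcl2, Cxcl3, Cxcl5, Cxcl12 and Cxcl14. A further 6, Ccr2, Ccl3, Ccl4, Ccl5, Cxcr3 and Cxcr5, had KO replicate 3 with WT replicates 1 and 2 on top. KO replicate 3 was the highest of the KO-labelled arrays for 32 of 46 members, 69.6%, beside 37.3% of all genes. It is also the only array labelled female, so sex and that array cannot be told apart.

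Leaving out single arrays moved these counts. Without KO replicate 3, 14 of 46 members were at an unadjusted p under 0.05, of which 12 were lower, beside 13.8% of all genes, and 19 of 46 did not overlap, beside 33.7%. Without WT replicate 2, 3 of 46 members were at that level, beside 6.15% of all genes, 6 of 46 did not overlap, beside 22.2%, and 26 of 46 had lower means with a median of -0.135. Ccr7 and Cx3cr1 were at an unadjusted limma p under 0.05 in 16 of 16 alternative settings, Ccl8 in 13, Cxcl16 in 7 and Cxcr6 in 5.

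**Figure D4:**
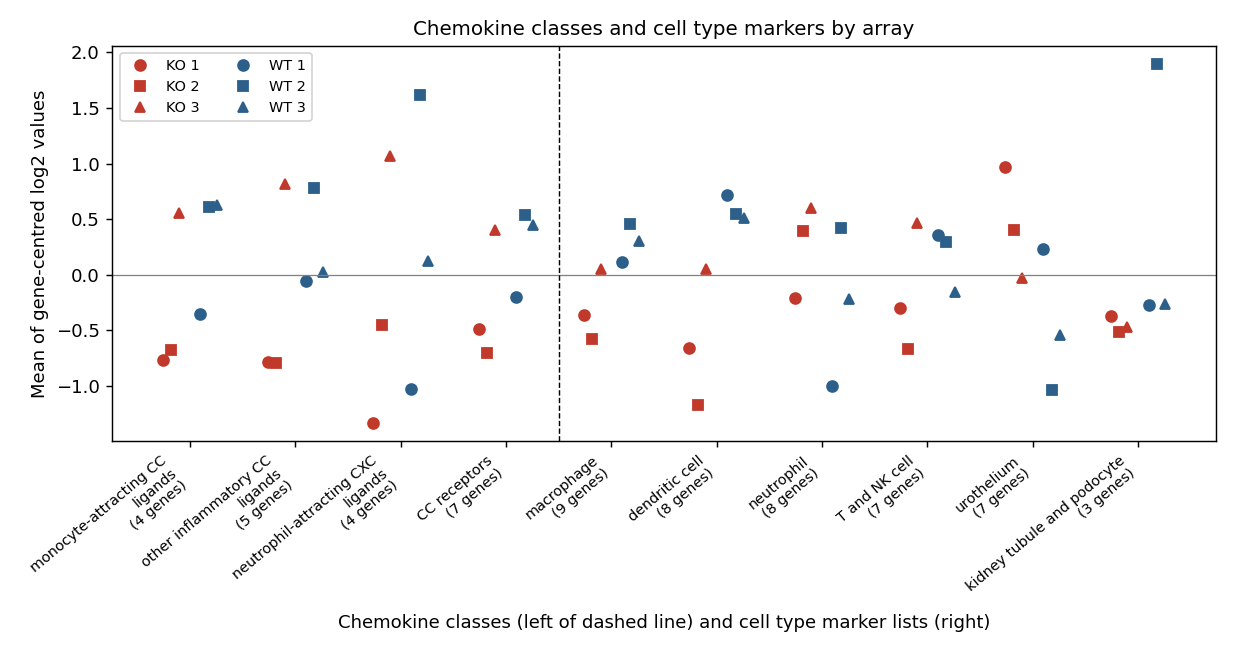
Mean log2 level on each array (y axis, each gene centred on its 6-array mean) of 4 chemokine role classes and 6 lists of cell type markers (x axis), with KO-labelled arrays left of WT arrays. Mean levels of dendritic cell and macrophage markers separate by genotype, the latter narrowly, whereas the chemokine classes overlap, with KO replicate 3 among the higher arrays.

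Markers of other tissue compartments also differed between arrays. All 7 urothelial markers were higher, with a median of 0.89 and mean levels of -0.03 to 0.97 in KO-labelled arrays and -1.04 to 0.24 in WT arrays. All 5 smooth muscle markers were higher, with a median of 0.74. WT replicate 2 had the lowest level of both lists, and it stood apart in the 3 measured of 8 listed kidney tubule and podocyte markers, at 1.90, where the KO-labelled arrays lay between -0.51 and -0.37 and the other WT arrays at -0.27. Their part in the chemokine values was not tested.

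Many of the ligands and receptors lie in clusters, in which most neighbours had lower means. The same held for 73.9% of all measured members, so it is not particular to the clusters. On chromosome 11, Ccl5, Ccl9, Ccl6, Ccl3 and Ccl4 lie between 83339296 and 83478111 (mm9), and 5 of 5 had lower means. Nearby, at 81850650 to 81930167, Ccl2, Ccl7, Ccl12 and Ccl8 had lower means and Ccl11, between Ccl7 and Ccl12, a higher mean. On chromosome 9, the neighbours Ccr9, Ccr3 and Ccr2 had lower means and Cxcr6 a higher mean. On chromosome 5, 3 of 4 neutrophil-attracting ligands and 2 of 3 interferon-induced ligands had lower means.

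Genes around the chemokine system were taken from lists of inducers, signalling partners and adhesion molecules, and none of them passed the adjusted threshold. Signalling genes below the receptors had lower means in 21 of 27 measured cases, with a median of -0.31, and 5 were at an unadjusted p under 0.05, all lower, or 5 of 27 beside 4.71% of all genes lower at that level. Prex1, a Rac activator, had 2.00, 1.83 and 2.38 in the KO-labelled arrays, against 2.54, 2.83 and 2.71 in the WT arrays (difference -0.62 ± 0.17, limma adjusted p = 0.454). Rgs1, which damps receptor signalling in lymphocytes and macrophages, had -3.30, -3.03 and -1.63 in the KO-labelled arrays, against -1.41, -0.10 and -1.30 in the WT arrays (difference -1.71 ± 0.54, limma adjusted p = 0.47). With another background correction (normexp), the Rgs1 difference was -0.77. Pik3r5, a subunit of the leukocyte PI3-kinase gamma, differed by -0.70 ± 0.23 (limma adjusted p = 0.477).

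Inducers of chemokine transcription had lower means in 11 of 13 measured cases with a median of -0.14 and none at an unadjusted p under 0.05. The closest were Nfkb2, with -0.43 ± 0.21, Il4, with -0.18 ± 0.19, and Nfkb1, with -0.14 ± 0.17. Among adhesion genes 9 of 15 had lower means, with a median of -0.16. Vcam1, the endothelial ligand of the integrin containing Itga4, had 2.06, 2.20 and 2.29 in the KO-labelled arrays, against 2.34, 2.62 and 2.49 in the WT arrays, with no overlap (difference -0.30 ± 0.12, limma adjusted p = 0.536). Itga4 differed by -0.56 ± 0.24 and Selplg, the P-selectin ligand of leukocytes, by -0.76 ± 0.36. The 6 adhesion genes with higher means included Sele (0.81 ± 0.42), Selp (0.65 ± 0.44), F11r (0.34 ± 0.17) and Icam1 (0.28 ± 0.14), whose groups overlapped. Of 7 chemokine system genes that the name rule leaves out 3 had lower means, with a median of 0.03. Pitpnm3, described as a receptor of the human chemokine CCL18, was higher by 0.65 ± 0.23 (limma adjusted p = 0.504), and by 0.30 with the normexp correction. Pf4, the platelet CXC chemokine, differed by -0.52 ± 0.56 and Ccrl2, a non-signalling receptor, by -0.28 ± 0.37.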

How the data were processed

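Total RNA of 6 ureters was hybridised as Cy3-labelled cRNA to 1-colour Agilent arrays, per the labels' protocols. Per the file headers, the deposited intensity of each spot is the background-subtracted signal that Agilent Feature Extraction 12.0.3.1 wrote. Arrays were not normalised against each other in these intensity columns, per the file headers. Slide and scan time were the same for the 6 arrays. Coordinates are those of build mm9, per the file headers, and where in a transcript a probe lies was not analysed here. The authors' own normalisation between arrays was not stated in the labels or file headers.

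The log2 value of the deposited processed signal had the 75th percentile of all non-control probes on the same array taken off. Spots of a probe were averaged, a probe was kept if all arrays of KO or all of WT had it well above background, and the brightest probe stood for its gene, leaving 22260 genes. Probes well above background numbered 35482 to 36567 per array, and the number of arrays limits the precision. Symbols were updated through RefSeq (GRCm38.p6), which matched 74 of the 85 chemokine probes and altered none of their symbols. The genotypes were compared by limma 3.58.1 (lmFit, eBayes; R 4.3.3) and p-values adjusted over all genes by Benjamini-Hochberg, and the fit was tested on simulated data. A permutation test of 3 arrays against 3 cannot go below a two-sided p of 0.1 and was not used.

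The members and lists were chosen with earlier results of these data known. Values in every array are given for Ccl2, Cxcl1, Ccr2, members at an unadjusted p under 0.05 and the 2 members of each role class with the smallest p, and other members are given as differences. In each pathway list the 3 members with the smallest p are named. Cxcr2, described in every array, and the single values of Cxcl10, Ccl3 and Ccl4 were chosen after their values were seen. Ccl19, Ccl21c and Ccl27b were not analysed here, and 1 measured gene stays in the counts but is not reported here. Same-numbered arrays of the genotypes had deviations that correlated at 0.53, -0.15 and -0.03, so the numbers were not taken to pair them. Alternatives covered background correction, normalisation, the filter, probe choice, the variance model, a sex term, a replicate block and left-out arrays. Motifs were searched in 250 upstream bases.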

Additional observations from a re-analysis of the deposited data

How the results depend on the processing

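No chemokine gene passed the adjusted threshold under any of 16 alternatives, and the members' median difference stayed below 0 in each. It ran from -0.559 to -0.135 when arrays were left out in turn. All genes past the threshold numbered 0, against 1 with the replicate block and 0 to 1 when arrays were left out (1 without KO replicate 2). Members at an unadjusted p under 0.05 numbered 5, against 3 with no filter on dim probes, 11 with WT replicate 2 and KO replicate 3 both out, 14 with a sex term, which in effect removes KO replicate 3, and 3 to 14 when arrays were left out. The share of all genes at that level was 9.06%, against 6.72%, 9.87% and 13.7% in the 3 named settings and 4.98% to 13.8% when arrays were left out. With the replicate block, 8 were at that level, beside 9.17% of all genes, but the numbers do not pair the arrays. Members whose groups did not overlap numbered 5, against 20 with both arrays out and 6 to 19 with 1 array out, where fewer arrays make separation easier; for all genes the share was 15.4%, against 41.2% and 20.2% to 33.7%. With 1 array out, signs turned for 7 named genes, none past the threshold in any setting: Ccl24 ranged from -0.624 to 0.177 (0.0146 and 0.109 without WT replicates 2 and 3), Ccl21b from -0.00121 to 0.622 (-0.00121 also with the sex term), Ackr4 from -0.587 to 0.15, Ccl11 from -0.192 to 0.808, Cxcl2 from -1.24 to 0.0864, Cxcl1 from -0.203 to 0.950 and Il4 from -0.287 to 0.0139. The cause was not tested. Across settings, Ccr7 differed by -1.41 to -0.79, Cx3cr1 by -1.46 to -0.94, Ccl8 by -0.90 to -0.41, Cxcl16 by -0.675 to -0.35, Cxcr6 by 0.17 to 0.43 and Ccr2 by -1.20 to -0.42. Leaving out 1 array moved the value of 21 of 27 named members and 6 of 12 named pathway genes by over 1.5 times in at least 1 case, and the normexp correction did so for 6 and 3. Among these, with normexp Cxcr6 had 0.167, Cxcr4 -0.404, Ccl25 -0.159, Rgs1 -0.766 and Pitpnm3 0.301. The 13 genes near background allow no comparison.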
